A study of Mus musculus with 26 samples.

Results

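The mitochondrial genome encodes 13 mRNAs, 2 rRNAs and 22 tRNAs, and these 37 genes were followed across 5 groups of mouse oocytes and 1-cell embryos. They were chosen by name, as the rows of the count table whose Ensembl ID has a GENCODE vM21 symbol that starts with mt-, and they are 37 of 55401 rows. Of the 37, 28 lie on the plus strand of the GRCm38 mitochondrial chromosome and 9 on the minus strand, namely mt-Nd6 and 8 tRNA genes. No count was present in any of the 26 libraries for mt-Td and mt-Tk, the tRNAs for aspartate and lysine, so 35 genes had data.

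RNA came from MII oocytes, which are unfertilised eggs halted in meiosis, of B6D2F1 females (age label 0 h), and from embryos made by in vitro fertilisation with B6D2F1 eggs and sperm (age label 10 h). All eggs came from superovulated females of 8 weeks. The titles number the libraries in 2 runs, called here the first and the second series. The first series has 7 libraries of embryos given 10058-F4, a small molecule that keeps the transcription factor c-Myc from working with its partner Max, and 7 of control embryos. The second series has 4 libraries of oocytes, 4 of control embryos and 4 of embryos given the toxin alpha-amanitin, which stops RNA polymerase II, the enzyme that makes nuclear mRNA. The c-Myc inhibitor was added 2 h after sperm and eggs were mixed, and left for 10 h, and the labels state no dose. Alpha-amanitin was used at 100 µg/ml, starting 1 h after mixing and lasting 10 h. The sources used here do not say what the controls received. Cells were lysed directly as single embryos, and libraries were made with a stranded total RNA kit for very small inputs. Library totals ranged from 20566278 to 27266040 counts in the first series and from 5371602 to 31540627 in the second, where the smallest was alpha-amanitin replicate 3. Nothing in the labels says that libraries came from separate animals, so p-values measure the spread between libraries. In such samples fewer mitochondrial genomes and less RNA per genome cannot be told apart.

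Oocyte markers are given as levels, and their presence does not set oocytes apart from embryos. All 11 oocyte markers had counts in each group, with summed levels (counts per 1000000 counts of the library, CPM) of 8823 to 9670 in oocytes, 4918 to 6225 in second-series controls, 5180 to 7546 under alpha-amanitin, 4714 to 6557 in first-series controls and 7638 to 9162 under the c-Myc inhibitor. The ranges of oocytes and c-Myc inhibitor embryos overlapped. Under the c-Myc inhibitor 6 of the 11 were called higher than in its controls and 0 lower (edgeR quasi-likelihood test, Benjamini-Hochberg adjusted p under 0.05). Of all genes tested, 7.15% were higher and 4.45% lower. The median log2 fold change of the 11 was 0.28. Gdf9, an oocyte growth factor among them, was at 304 to 614 CPM in first-series controls and at 1627 to 2379 under the c-Myc inhibitor. The 12 cumulus and granulosa markers summed to 81.7 to 185.5 CPM over all groups, with 1 to 5 of the 12 at 0 in a whole group. Of the 12 sperm and spermatid markers 8 or 9 were at 0 in a whole group, and the sums were 4.56 to 23.8 CPM. The protamine Prm1 was at 0 in oocytes, under alpha-amanitin and in both groups of the first series. It had counts in second-series controls. Prm2, also a protamine, and Ldhc had counts in every group, oocytes included. The part of these cells in the mitochondrial levels was not tested.

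Mitochondrial DNA is a small circle in many copies per cell, and the egg holds very many of them. Its genes are read by a polymerase of their own, Polrmt, with the helpers Tfam and Tfb2m, as long transcripts of either strand that are cut at the tRNAs into mRNAs, rRNAs and tRNAs. Polrmt is known to be insensitive to alpha-amanitin. The mRNAs encode core subunits of the respiratory chain and the ATP synthase, the rRNAs build the mitochondrial ribosome, and the tRNAs serve translation inside the organelle. Every other protein of the organelle is encoded in the nucleus.

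Sequences are given for the genes on which the results turn, taken from the GENCODE vM21 transcripts (GRCm38). The genes mt-Nd5 and mt-Nd6, subunits of respiratory complex I, face each other and overlap by 14 bases at their 3′ ends, which are in capitals in the last 30 bases of each gene. The mt-Nd5 end is at chrM:13536-13565 on the plus strand and the mt-Nd6 end at chrM:13552-13581 on the minus strand.
mt-Nd5: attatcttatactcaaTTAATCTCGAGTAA
mt-Nd6: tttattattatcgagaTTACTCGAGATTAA

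A set of minus-strand tRNA genes is shown, with the anticodon in capitals, because they were called higher in second-series than in first-series controls, as given below. They are mt-Tq for glutamine (chrM:3772-3842), mt-Ta for alanine (chrM:5018-5086), mt-Tn for asparagine (chrM:5089-5159), mt-Ts1 for a serine codon family (chrM:6870-6938) and mt-Tp for proline (chrM:15356-15422), each written 5′ to 3′ on the minus strand.
mt-Tq: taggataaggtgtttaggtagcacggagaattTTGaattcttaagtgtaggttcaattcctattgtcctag
mt-Ta: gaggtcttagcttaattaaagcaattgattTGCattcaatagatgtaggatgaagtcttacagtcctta
mt-Tn: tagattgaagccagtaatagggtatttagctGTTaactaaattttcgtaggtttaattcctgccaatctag
mt-Ts1: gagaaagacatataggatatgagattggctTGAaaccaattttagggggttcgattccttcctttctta
mt-Tp: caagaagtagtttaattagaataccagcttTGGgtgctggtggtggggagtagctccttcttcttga

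Copies of mitochondrial genes also lie in the nuclear chromosomes, and a read that matches both places cannot be assigned to one. The first 60 bases of mt-Co3 (chrM:8607-8666, plus strand), a subunit of cytochrome c oxidase, are the same in the pseudogene Gm28437 (chr1:24613912-24613971, minus strand). A stretch of mt-Cytb (chrM:14146-14205, plus strand), the cytochrome b of complex III, differs from Gm11410 (chr4:80003990-80004049, plus strand) at 3 bases, in capitals.
mt-Co3: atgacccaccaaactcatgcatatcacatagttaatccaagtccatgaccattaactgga
Gm28437: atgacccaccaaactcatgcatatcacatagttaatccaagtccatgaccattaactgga
mt-Cytb: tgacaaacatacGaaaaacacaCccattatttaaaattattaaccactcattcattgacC
Gm11410: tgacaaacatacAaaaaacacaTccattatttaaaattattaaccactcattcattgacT

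Of the bases of each gene, the share that lies in a 50-base window identical to an annotated nuclear transcript was 100.0% for mt-Co2, 99.9% for mt-Co3, 99.6% for mt-Atp6, 99.0% for mt-Nd4l and 98.3% for mt-Nd3. It was 74.9% for mt-Co1, 63.6% for mt-Nd4, 24.3% for mt-Nd5 and 17.2% for mt-Nd2. It was 0 for mt-Nd1, mt-Nd6, mt-Cytb, mt-Atp8, both rRNAs and all 22 tRNAs. How the authors treated reads with several matches is not given in the labels or notes, and only annotated transcripts were searched. On chromosome 1, annotated copies of mt-Co1 (in part), mt-Co2, mt-Atp6, mt-Co3, mt-Nd3, mt-Nd4l and mt-Nd4 lie in this order from 24616197 down to 24611535. In the mitochondrial genome mt-Ts1, mt-Td, mt-Tk, mt-Atp8, mt-Tg and mt-Tr lie between these genes. Whether they have nuclear copies outside annotated transcripts was not tested, so a share of 0 does not mean no copy.

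**Figure D1:**
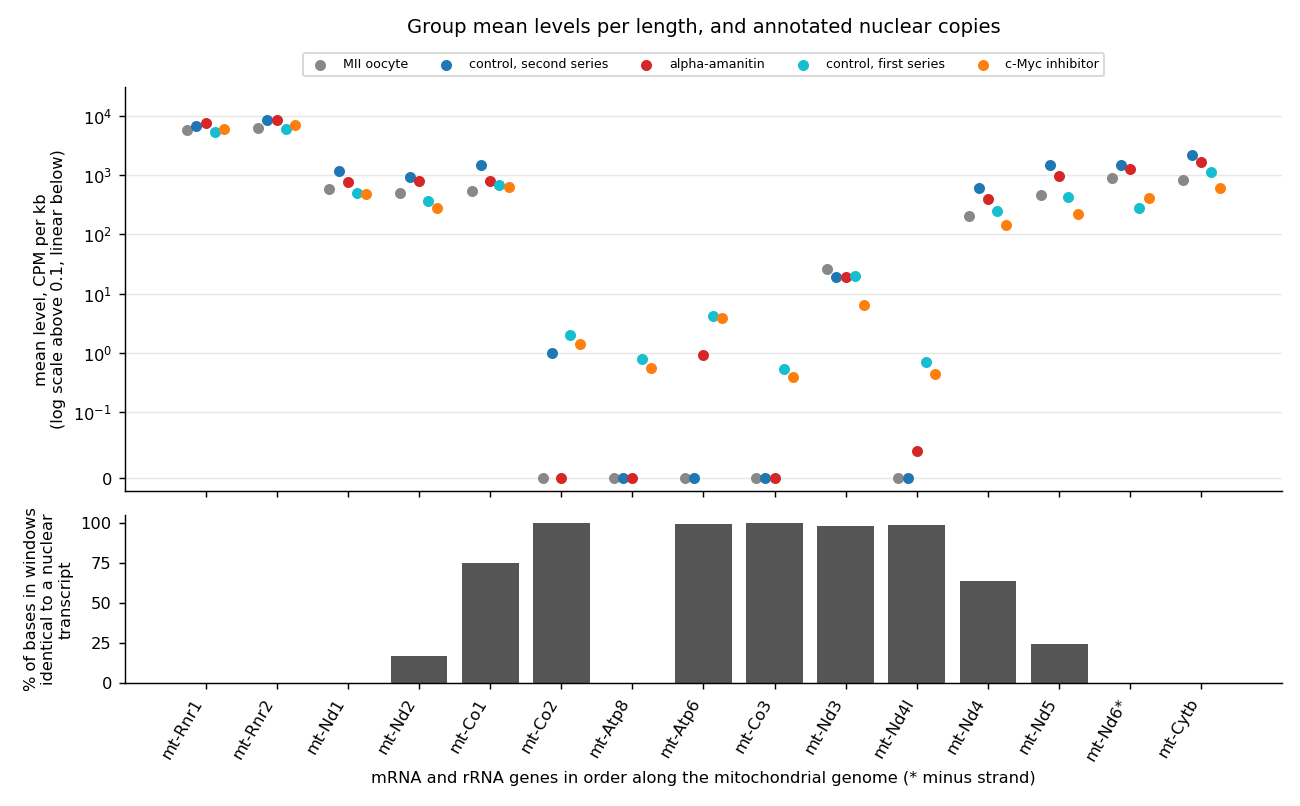
Mean level of the 13 mRNA and 2 rRNA genes in each group, in CPM per kb of gene (log axis above 0.1, linear below), above the percentage of each gene's bases in 50-base windows identical to a nuclear transcript. Genes stand in order along the mitochondrial genome. The genes at 98.3% or more and mt-Atp8 are low in every group.

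Levels can be compared between genes only per length, in CPM per kb. The rRNAs mt-Rnr1 and mt-Rnr2 were highest, with group means of 5267 to 7539 and 5989 to 8446 CPM per kb. This kit is sold with a step that removes ribosomal cDNA, so rRNA levels are what that step left. Among mRNAs, mt-Cytb had the highest mean in second-series controls (2140 CPM per kb), followed by mt-Co1 (1462), mt-Nd6 (1460), mt-Nd5 (1453), mt-Nd1 (1165), mt-Nd2 (909) and mt-Nd4 (604). In these 4 libraries mt-Cytb, at 1837 to 2489 CPM per kb, lay above mt-Co1, at 1431 to 1496, without overlap. Every later neighbour in that order overlapped the next, except that mt-Nd2 (794 to 1024) stood above mt-Nd4 (496 to 736). In oocytes mt-Nd6 had the highest mRNA mean (899 CPM per kb, 705 to 1038), which overlapped mt-Cytb (827, 495 to 992). In first-series controls mt-Cytb (1116) was highest and mt-Nd6 (273) stood between mt-Nd2 (369) and mt-Nd4 (250), with overlapping ranges. These orders use whole gene lengths. The share of bases in windows identical to a nuclear transcript is 74.9% for mt-Co1, 63.6% for mt-Nd4 and 0 for mt-Cytb. The part of multiple matches in the orders was not tested.

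The remaining mRNAs were far lower. mt-Nd3, a complex I subunit, had group means of 6.49 to 26.3 CPM per kb. mt-Co2, mt-Atp8, mt-Atp6, mt-Co3 and mt-Nd4l, which encode subunits of cytochrome c oxidase, the ATP synthase and complex I, had at most 98 counts in any library. In the second series they had no count, apart from 53 of mt-Co2 in control replicate 2, 49 of mt-Atp6 in alpha-amanitin replicate 2 and 1 of mt-Nd4l in alpha-amanitin replicate 4. In the first series each had counts in all 14 libraries, except that mt-Atp8 had none in 1 library of the c-Myc inhibitor. Of these genes, all but mt-Atp8 are at 99.0% or more in identical nuclear windows, and mt-Atp8 shares 43 bases with mt-Atp6. The part of multiple matches in these levels was not tested.

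The nuclear pseudogenes that match mitochondrial genes had low means too. Gm10925, which matches mt-Atp6, was at a mean of 10.9 CPM in first-series controls and 1.99 CPM in second-series controls. Gm13340, which matches mt-Co1 over its whole length at 97.6% identity, was at 5.55 and 2.89 CPM, against 1052 and 2259 CPM for mt-Co1 itself. Gm28437, with the sequence shown for mt-Co3, was at 1.12 and 0.0799 CPM. Gm10222, which matches mt-Nd4l, was at 0.711 and 5.49 CPM, with 3 to 46 counts per library in first-series controls and 1 to 247 in second-series controls. Gm28438, which matches mt-Nd3, was at 0.455 and 1.79 CPM, with 2 to 25 and 0 to 141 counts per library, so that no direction can be read from these 2 means.

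All 37 genes together held 1.98% ± 0.386 of counts in oocytes, 3.08% ± 0.434 in second-series controls and 2.84% ± 0.306 under alpha-amanitin (SD, n = 4 each). They held 1.91% ± 0.646 in first-series controls and 2.00% ± 0.214 under the c-Myc inhibitor (n = 7 each). The mRNAs made up 0.505, 0.486, 0.290 and 0.491% of counts in the oocyte libraries, 0.878, 1.14, 1.24 and 1.14% in second-series controls, and 0.888, 0.573, 0.718 and 0.873% under alpha-amanitin. In first-series controls the lowest was 0.121%, the median 0.487% and the highest 0.642%, and under the c-Myc inhibitor they were 0.275, 0.298 and 0.407%. Every second-series control lay above every oocyte and every first-series control. Alpha-amanitin libraries all lay above the oocytes, and 1 of them overlapped the lowest control.

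The rRNAs made up 1.52% ± 0.302 in oocytes, 1.95% ± 0.347 in second-series controls, 2.06% ± 0.163 under alpha-amanitin, 1.45% ± 0.498 in first-series controls and 1.67% ± 0.165 under the c-Myc inhibitor. Within the series the ranges overlapped, except that alpha-amanitin libraries (1.915 to 2.245%) lay just above oocytes (1.203 to 1.909%). The ratio of the mRNA sum to the rRNA sum within a library was 0.170 to 0.220 under the c-Myc inhibitor and 0.238 to 0.424 in its controls, without overlap. It was 0.241 to 0.349 in oocytes, 0.460 to 0.710 in second-series controls and 0.297 to 0.408 under alpha-amanitin, so the second-series controls stood above both other groups. The rRNA in this ratio is what the kit's removal step left, and how that step varied between libraries was not tested. The tRNAs held 0.0127% of counts in oocytes, 0.0300% and 0.0213% in second-series control and alpha-amanitin embryos, and 0.00909% and 0.0100% in the first series. The files do not tell mature tRNAs from uncut precursors.

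**Figure D2:**
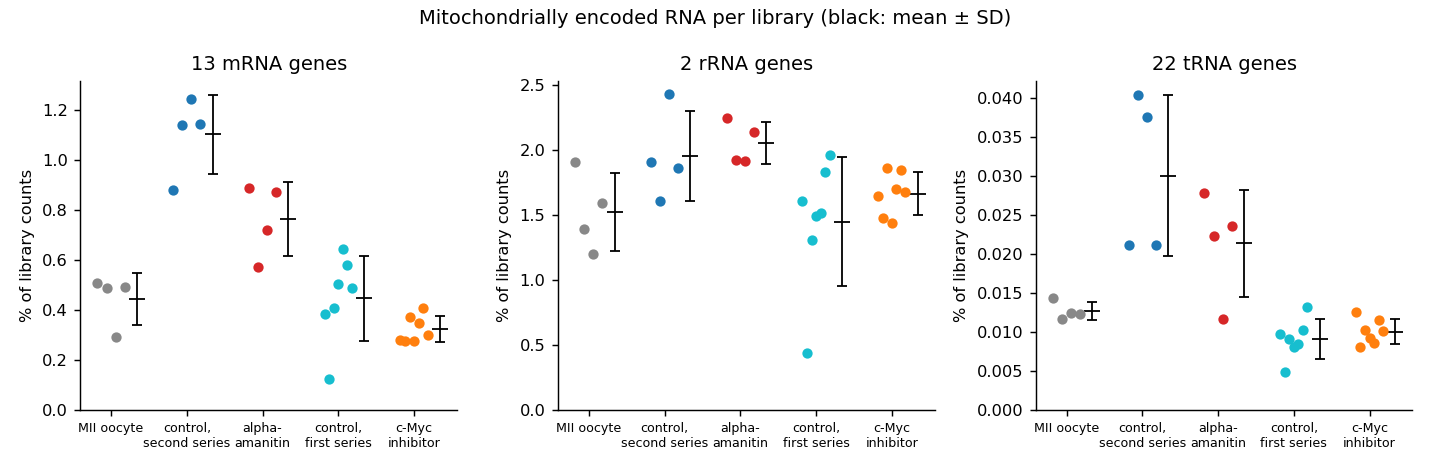
Percentage of each library's counts in the mitochondrial mRNA, rRNA and tRNA genes. Points are libraries and black bars the group mean ± SD (n = 4, or 7 in the first series). Second-series controls are above oocytes and first-series controls for mRNA, and the lone low first-series control, at 0.438% for rRNA, is replicate 2.

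The minus-strand genes were lower in the first series. They held 0.0585% ± 0.00832 of counts in oocytes, 0.104% ± 0.0390 in second-series controls and 0.0851% ± 0.0316 under alpha-amanitin (SD, n = 4 each), against 0.0215% ± 0.00476 and 0.0295% ± 0.00440 in first-series control and c-Myc inhibitor embryos (n = 7 each). The lowest second-series library of any kind was at 0.04405% and the highest first-series library at 0.0342%, so the series did not overlap. Among tRNA genes, 8 of 8 on the minus strand reached a mean of 1 CPM in some group and 5 of 14 on the plus strand did. The remaining 9 plus-strand tRNAs had at most 43 counts in a library. Nuclear copies of tRNA genes outside annotated transcripts were not searched for. The plus-strand tRNAs mt-Tv, mt-Tl1, mt-Tm, mt-Tt and mt-Tw, for valine, leucine, methionine, threonine and tryptophan, had group means of at most 7.56 CPM. No label or note used here gives the strand setting of the counts. Without it, reads from a minus-strand gene and antisense reads of the plus-strand transcript across it cannot be told apart.

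First-series control replicate 2 stood apart in these genes. Its mt-Cytb was at 204 CPM, while the other 6 controls had 1174 to 1778, and its mt-Rnr2 at 2505 CPM against 8626 to 12910. Its mt-Nd6, at 120 CPM, was the lowest control but close to the next, at 127. Its Gdf9, at 614 CPM, was the highest of the controls (others 304 to 553) and below the treated libraries (1627 to 2379). Why this library stood apart was not tested. Without it the first-series controls had means of 0.500% of counts for mRNA, 1.62% for rRNA and 0.0224% for the minus-strand genes. Calls that turned on this library are given with and without it.

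The first comparison was of the c-Myc inhibitor with its controls. Of 25 mitochondrial genes tested 2 were called, mt-Nd6 higher and mt-Nd3 lower, where 11.6% of all genes tested were called. Of 37 genes, 25 passed the filter on low counts (10 mRNAs, 2 rRNAs, 13 tRNAs), and 1 was higher and 1 lower (edgeR quasi-likelihood test, Benjamini-Hochberg adjusted p under 0.05). Over all 13003 genes tested, 7.15% were higher and 4.45% lower, 11.6% in all. The median log2 fold change was -0.05 over the 25 genes and -0.0005 over all genes. Of 34 mitochondrial genes with a count in these libraries, 0 had ranges that did not overlap between the groups, where 1.30% of all genes lay wholly higher and 0.644% wholly lower.

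mt-Nd6 was at 120, 130 and 198 CPM (lowest, median, highest) in controls and at 158, 224 and 253 CPM under the inhibitor. Control replicate 8 alone lay within the treated range, above treated replicates 2 and 3. The fold change was 0.61 on the log2 scale (SE 0.11, edgeR adjusted p = 0.000171), with means of 142 ± 27.0 and 214 ± 33.4 CPM (SD, n = 7 each). The call was lost in 1 fit of all 5 groups (adjusted p = 0.0588) and held in the other 21 of 22 alternatives, among them every fit with a library left out.

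mt-Nd5, the neighbour that overlaps mt-Nd6, was at 199, 839 and 1051 CPM in controls and at 288, 407 and 601 CPM under the inhibitor. mt-Cytb, on the far side of mt-Nd6, was at 204, 1263 and 1778 against 493.4, 635 and 883 CPM. In both genes the lowest control was replicate 2, and the other 6 controls lay above every treated library. With all libraries, mt-Nd5 was at -0.90 (SE 0.31, edgeR adjusted p = 0.0852) and mt-Cytb at -0.88 (SE 0.37, edgeR adjusted p = 0.168), and neither was called. Without control replicate 2 both were called, at -1.07 (edgeR adjusted p = 0.000333) and -1.07 (edgeR adjusted p = 0.00101).

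The same library decided mt-Nd4 and mt-Nd2, further complex I subunits. mt-Nd4 was at 65.7, 365 and 489 CPM in controls and 132, 190 and 277 CPM under the inhibitor (-0.79, SE 0.35, edgeR adjusted p = 0.212, and -0.97 with adjusted p = 0.00203 without replicate 2). mt-Nd2 was at 163, 352 and 525 against 214, 278 and 379 CPM (-0.43, adjusted p = 0.362, and -0.56 with adjusted p = 0.0320 without replicate 2). So without control replicate 2 the lower calls were mt-Nd2, mt-Nd3, mt-Nd4, mt-Nd5 and mt-Cytb, and the higher call was mt-Nd6, at 0.57. The share of all genes called in that fit is not given here, so these calls cannot be set against it. Without robust estimation of the spread, a setting added after the data were seen, mt-Nd3, mt-Nd5 and mt-Cytb were lower.

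mt-Nd3 was at 0.993, 6.47 and 10.8 CPM in controls and at 0.779, 2.44 and 3.89 CPM under the inhibitor. Its fold change was -1.60 (SE 0.50, edgeR adjusted p = 0.0332), and the ranges overlapped. It rests on 19 to 228 counts per library, and the call was lost with limma voom, in 1 fit of all 5 groups, with the replicate block and when any 1 of 6 of the 14 libraries was dropped. Of the bases of mt-Nd3, 98.3% lie in windows identical to a nuclear transcript, and the part of multiple matches in this change was not tested.

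The other genes did not pass. mt-Co1, the core of cytochrome c oxidase, was at 286, 1039 and 1678 CPM in controls and 830, 896 and 1132 CPM under the inhibitor (-0.12, SE 0.30, edgeR adjusted p = 0.898). mt-Nd1 was at 175, 442 and 762 against 373, 436 and 587 CPM (-0.05, SE 0.27, edgeR adjusted p = 0.958). The log2 fold changes of mt-Rnr1, mt-Rnr2, mt-Co2 and mt-Atp6 were 0.18, 0.23, -0.49 and -0.11, with edgeR adjusted p of 0.728 or more. Without control replicate 2, mt-Co1 was at -0.29, mt-Nd1 at -0.20, mt-Rnr1 at 0.04 and mt-Rnr2 at 0.06, and none of them was called. mt-Atp8, mt-Co3 and mt-Nd4l were below the filter. No tRNA was called. The smallest edgeR p-values among tRNAs were those of mt-Tq, at -0.67 (adjusted p = 0.185), and mt-Tp, at 0.35 (adjusted p = 0.187). mt-Te was at -1.29 and mt-Ty at -1.15 (edgeR adjusted p = 0.486 and 0.626).

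**Figure D3:**
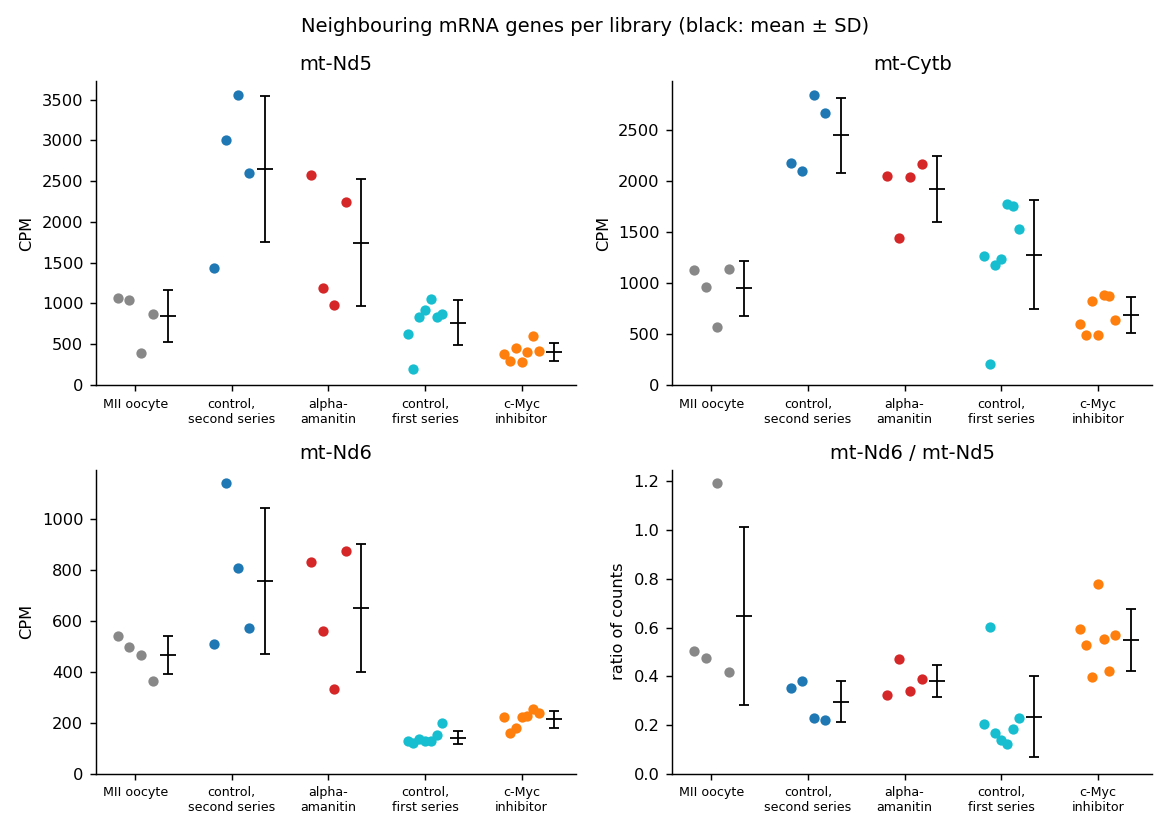
Level of mt-Nd5, mt-Cytb and mt-Nd6 in CPM, and the ratio of mt-Nd6 to mt-Nd5 counts, in each library, with group mean ± SD in black. The ratio is 0.399 to 0.778 under the c-Myc inhibitor, and the single high ratio among its controls (0.604) is replicate 2.

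Ratios within a library do not depend on its total. mt-Nd6 per mt-Nd5 was 0.122 to 0.227 in 6 first-series controls, 0.604 in replicate 2, and 0.399 to 0.778 under the inhibitor. mt-Cytb per mt-Co1 was 0.998 to 1.503 in the same 6 controls, 0.713 in replicate 2 and 0.552 to 0.864 under the inhibitor. mt-Nd4 per mt-Nd1 was 0.608 to 0.969, 0.377 and 0.253 to 0.537 in the same order. In these 3 ratios replicate 2 lay within the treated range and the other controls outside it. In 2 further ratios it lay outside both ranges, below them. mt-Co1 per mt-Nd2 was 1.755 in replicate 2, 2.36 to 3.20 in the other controls and 2.88 to 3.88 under the inhibitor. mt-Rnr2 per mt-Rnr1 was 1.335, 1.79 to 2.01 and 1.74 to 2.17 in the same order.

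The second comparison was of alpha-amanitin with its controls. mt-Co1 fell, the only mitochondrial gene called, and it was also the only gene called lower among all genes. Of 24 mitochondrial genes tested (8 mRNAs, 2 rRNAs, 14 tRNAs) 0 were higher and 1 was lower, against 0.0305% higher and 0.00761% lower (0.0381% in all) of 13133 genes by edgeR. At an unadjusted p under 0.05 there were 4 mitochondrial genes, and DESeq2 and limma voom also called 0 higher. For this and all later counts at an unadjusted p, the share of all genes is not given here. No excess over all genes can be read from such counts. Of the 24, 19 had a log2 fold change below 0, with a median of -0.40 against -0.01 over all genes.

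mt-Co1 was at 2312, 2225, 2288 and 2211 CPM in the controls and at 1302, 990, 1228 and 1367 CPM under alpha-amanitin. All 4 treated libraries were below all 4 controls. The fold change was -0.93 (SE 0.15, edgeR adjusted p = 0.0189). It was below 0 in every alternative run, but dropping any 1 of 6 of the 8 libraries ended the call (adjusted p 0.0511 to 0.148), and so did 1 fit of all 5 groups (0.125). It held without alpha-amanitin replicate 3 (0.0107) and without alpha-amanitin replicate 4 (0.0240).

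mt-Nd4 was at 683, 809, 822 and 1014 CPM in controls and at 574, 439, 604 and 564 CPM under alpha-amanitin, also without overlap (-0.66, SE 0.16, edgeR adjusted p = 0.439). It was called by DESeq2, by limma voom and with no filter on low counts. mt-Nd1 was at 832, 1185, 1140 and 1302 against 776, 571, 845 and 714 CPM (-0.66, SE 0.20, edgeR adjusted p = 0.537), with 1 treated library above 1 control, and was called with no filter. Besides mt-Co1 and mt-Nd4, mt-Ta had ranges that did not overlap, at 30.5 to 46.8 CPM in controls and 3.72 to 20.7 under alpha-amanitin. These 3 of 31 mitochondrial genes with a count were lower, and 0 were higher, where over all genes 0.515% were lower in this sense and 0.849% higher.

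The other genes were not called. mt-Nd5 (-0.64), mt-Cytb (-0.39), mt-Nd2 (-0.27) and mt-Nd6 (-0.27) had edgeR adjusted p of 0.617 or more, and so had mt-Rnr1 (0.14), mt-Rnr2 (-0.03) and mt-Nd3 (-0.00). Among tRNAs mt-Ta (-1.71), mt-Tq (-1.04), mt-Tn (-0.80), mt-Tp (-0.41) and mt-Ts1 (0.23) had edgeR adjusted p of 0.679 or more, as had mt-Te (1.34), mt-Ty (-1.37) and mt-Tc (-0.34). The mt-Te value rests on alpha-amanitin replicate 3, with 342 counts (63.7 CPM, others 0.245 to 2.51), and was -2.61 without it. That of mt-Tc was 1.76 without control replicate 2 and 0.04 without alpha-amanitin replicate 3. mt-Cytb per mt-Co1 was 1.45 to 1.66 in treated libraries and 0.941 to 1.24 in controls. The 2 ranges did not overlap.

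Whether the effects of the inhibitors differed was tested as a contrast over the 22 embryo libraries. Of 28 mitochondrial genes tested 0 were called by edgeR, where 0.754% of 15790 genes were higher and 0.450% lower, 1.20% in all. Of the 28, 5 had an unadjusted p under 0.05. DESeq2 called 2 higher and 1 lower, limma voom 0, and the test with no filter 4 and 1. The difference was 0.89 for mt-Nd6 (edgeR adjusted p = 0.126) and 0.82 for mt-Co1 (edgeR adjusted p = 0.297), each the c-Myc inhibitor effect minus that of alpha-amanitin. It was -6.84 for mt-Atp6 and 6.42 for mt-Co2 (edgeR adjusted p = 0.113 and 0.162), each with counts in only 1 second-series library. For mt-Nd1, mt-Nd2, mt-Nd3, mt-Nd4, mt-Nd5 and mt-Cytb it was 0.62, -0.15, -1.59, -0.12, -0.25 and -0.48 (edgeR adjusted p of 0.398 or more). mt-Rnr1 was at 0.05 and mt-Rnr2 at 0.26 (edgeR adjusted p = 0.986 and 0.830).

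The third comparison was of the control embryo with the oocyte, within the second series. A set of plus-strand mitochondrial mRNAs was higher in the embryo, relative to the other RNA counted. More of these mRNAs per cell and less of other RNA cannot be told apart here. The control embryos are those compared with alpha-amanitin, so the 2 comparisons share these libraries. Of 24 genes tested 5 were higher and 0 lower (0 lower also by DESeq2 and limma voom, with 11 at an unadjusted edgeR p under 0.05 in either direction): mt-Nd1, mt-Nd2, mt-Co1, mt-Nd4 and mt-Cytb. Over all 13133 genes 1.20% were higher and 1.90% lower, 3.09% in all. Of the 24, 23 had a log2 fold change above 0, with a median of 1.45 against -0.03 over all genes.

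mt-Co1 was at 812, 952, 571 and 990 CPM in oocytes, below the embryo values given above (1.48, SE 0.15, edgeR adjusted p = 1.81e-06). mt-Nd4 was at 307, 297, 203 and 295 CPM (1.64, SE 0.17, edgeR adjusted p = 1.88e-06). mt-Cytb was at 1125, 960, 567 and 1135 CPM in oocytes and 2176, 2102, 2847 and 2666 in embryos (1.41, SE 0.18, edgeR adjusted p = 7.52e-05). mt-Nd1 (1.06) and mt-Nd2 (0.94) had edgeR adjusted p of 0.00266 and 0.00409. These 5 genes did not overlap between the groups, and each was called in all 16 alternatives, among them those without oocyte replicate 3, whose mRNA sum was lowest.

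Other genes did not pass. mt-Nd5 was at 1068, 1046, 390 and 875 CPM in oocytes and 1439, 3001, 3560 and 2599 in embryos (1.69, SE 0.41, edgeR adjusted p = 0.0505). mt-Nd6 was at 539, 497, 465 and 366 against 509, 1142, 808 and 572 CPM, with overlapping ranges (0.74, edgeR adjusted p = 0.203). The rRNAs were at 0.27 for mt-Rnr1 (edgeR adjusted p = 0.333) and 0.46 for mt-Rnr2 (0.0631). mt-Nd3 was at -0.43 (edgeR adjusted p = 0.995). Among tRNAs mt-Ta (2.52), mt-Tn (3.46), mt-Ts1 (1.66), mt-Tq (1.06) and mt-Tp (0.88) had edgeR adjusted p of 0.135 or more, and mt-Te (2.00), mt-Ty (2.99) and mt-Tc (2.41) of 0.735 or more. Of 29 mitochondrial genes with a count 9 had embryo values all above the oocyte values, where 2.49% of all genes did, and 0 lay all below, where 5.87% did.

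Alpha-amanitin embryos were compared with the same oocytes, so that this comparison and the last share their oocyte libraries. mt-Nd4 (0.98, SE 0.16, edgeR adjusted p = 0.00119) and mt-Cytb (1.02, SE 0.18, edgeR adjusted p = 0.00288) were higher and 0 of 24 genes lower (0 also by DESeq2 and limma voom, with 8 at an unadjusted p under 0.05), where 0.510% of all genes were higher and 1.34% lower, 1.85% in all. Both calls were lost in 1 fit of all 5 groups and held in the other 15 of 16 alternatives. Side by side, the log2 fold changes against oocytes in control and alpha-amanitin embryos were 1.48 and 0.55 for mt-Co1, 1.06 and 0.40 for mt-Nd1, 0.94 and 0.67 for mt-Nd2, 1.69 and 1.05 for mt-Nd5, and 0.74 and 0.47 for mt-Nd6. In alpha-amanitin embryos these 5 had edgeR adjusted p of 0.0594 to 0.674, and mt-Rnr1 (0.41), mt-Rnr2 (0.44) and mt-Nd3 (-0.44) were not called (0.118, 0.109 and 0.999). mt-Rnr2, mt-Nd4 and mt-Cytb lay above every oocyte, where 1.72% of all genes did, and 0 lay below every oocyte, where 3.84% did.

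The last comparison was of the 2 control embryo groups, which carry the same strain, age and treatment labels. The series and any handling that differed between them cannot be told apart. In second-series controls 9 of 26 mitochondrial genes tested were higher and 1 lower, where 1.57% of 13594 genes were higher and 2.60% lower, 4.16% in all. The higher genes were mt-Nd1, mt-Nd2, mt-Nd5, mt-Nd6, mt-Tq, mt-Ta, mt-Tn, mt-Ts1 and mt-Tp, so that 6 of 8 tested on the minus strand and 3 of 18 on the plus strand were higher. The 18 include tRNAs with few counts and mt-Co2, mt-Atp6 and mt-Nd3, so the strands are not compared at like counts. By range, 6 plus-strand mRNAs lay wholly above the first-series controls, as did mt-Nd6 and 3 minus-strand tRNAs. A difference between the strands was not tested. Of the 26, 18 had a log2 fold change above 0, with a median of 1.16 against -0.04 over all genes.

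mt-Nd6 differed most among the abundant genes. It was at 509, 1142, 808 and 572 CPM in second-series controls and at 120 to 198 CPM in first-series controls, without overlap (2.41, SE 0.18, edgeR adjusted p = 1.42e-07). mt-Nd5 (1.78, SE 0.38, edgeR adjusted p = 0.0312), mt-Nd2 (1.29, SE 0.23, edgeR adjusted p = 0.00254) and mt-Nd1 (1.19, SE 0.29, edgeR adjusted p = 0.0410) were higher, and every second-series control was above every first-series control in each. When each of the 11 libraries was dropped in turn, the call of mt-Nd1 held 4 times and that of mt-Nd5 6 times, while mt-Nd2 and mt-Nd6 held all 11 times.

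mt-Co1 (1.09), mt-Nd4 (1.26) and mt-Cytb (0.92) also had ranges that did not overlap but were not called (edgeR adjusted p = 0.124, 0.106 and 0.313). Without first-series control replicate 2 they were called, at 0.92, 1.07 and 0.73, and 12 mitochondrial genes were higher in all. For that fit too the share of all genes called is not given here. The rRNAs were at 0.32 for mt-Rnr1 and 0.47 for mt-Rnr2 (edgeR adjusted p = 0.636 and 0.584), and mt-Nd3 at -0.08 (0.984).

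Minus-strand tRNAs, whose sequences are given above, made up 5 of the 9 higher calls. mt-Tn had 179, 330, 136 and 404 counts in the second-series controls, 55, 65, 1 and 4 in oocytes, 559, 182, 0 and 130 under alpha-amanitin, and 0 to 3 counts in each of the 14 first-series libraries (controls 8.53, SE 1.18, edgeR adjusted p = 0.000235). mt-Ts1 was at 2.24, 28.4, 33.2 and 36.9 CPM against 0.243 to 1.105 (5.18, SE 0.70, edgeR adjusted p = 0.000188). mt-Ta was at 33.1, 44.5, 46.8 and 30.5 against 1.08 to 6.68 CPM (3.32, SE 0.45, edgeR adjusted p = 0.000173). In mt-Tq (2.14, edgeR adjusted p = 0.00920) and mt-Tp (1.27, edgeR adjusted p = 0.00862) the ranges overlapped. mt-Te, for glutamate, was at 2.14 and mt-Ty, for tyrosine, at 1.77 without a call (edgeR adjusted p = 0.399 and 0.505), and with the replicate block mt-Te was at -1.54 and mt-Ty at 0.04. No plus-strand tRNA was called, and mt-Tt, with the highest mean of them in second-series controls, was at 0.757 to 15.1 against 1.61 to 6.71 CPM (1.13, edgeR adjusted p = 0.581).

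The gene that was lower in second-series controls was mt-Atp6. It had 18 to 98 counts in each first-series control and 0 in all 4 second-series controls, at least 71.9-fold lower by a floor of 3 counts over the group. mt-Co3, mt-Nd4l and mt-Atp8 likewise had no count there, at least 10.3-, 5.17- and 4.07-fold lower, and lay below the filter. Of these 4 genes, mt-Co3, mt-Nd4l and mt-Atp6 have 99.0% or more of their bases in identical nuclear windows. So has mt-Co2 (edgeR adjusted p = 0.841). mt-Atp8 has none in windows identical to an annotated transcript. It lies between mt-Co2 and mt-Atp6, which both have an annotated copy on chromosome 1, and a copy outside annotated transcripts was not searched for. Of 33 mitochondrial genes with a count in these libraries, 10 lay wholly above the first-series controls and 4 wholly below, where 1.22% and 2.46% of all genes did.

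**Figure D4:**
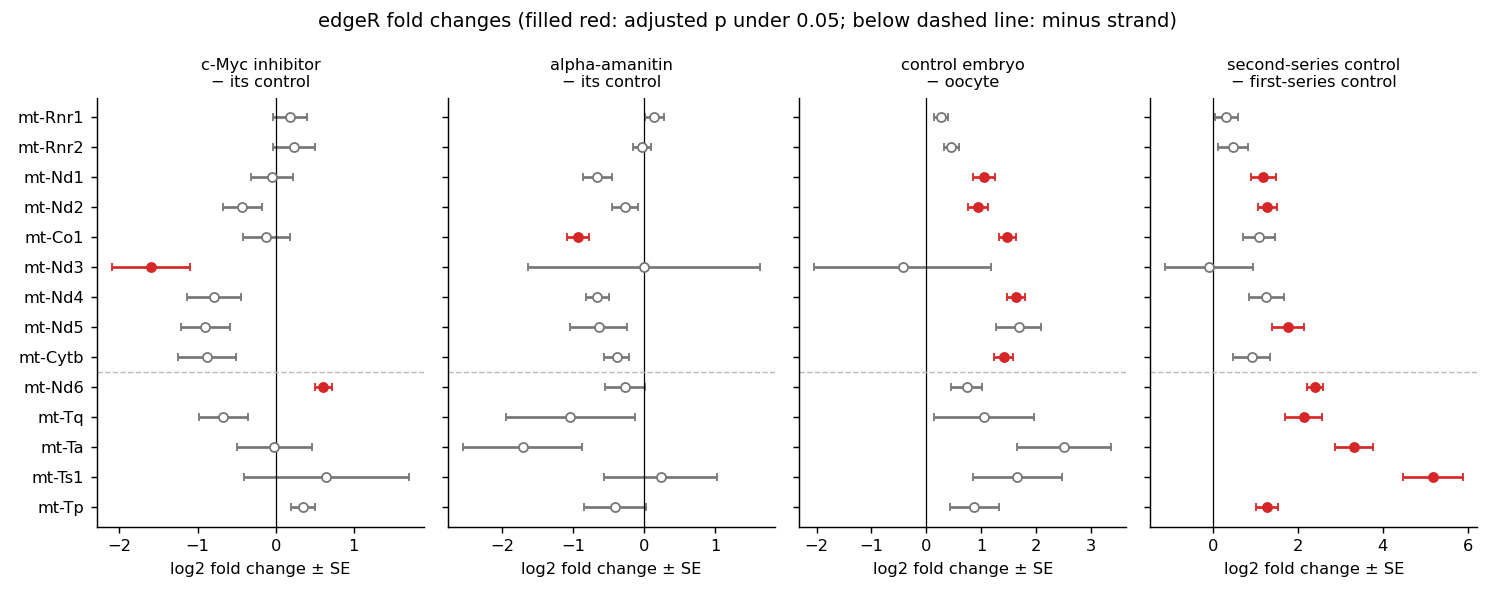
Log2 fold change ± SE (edgeR) of mitochondrial genes in 4 comparisons, with plus-strand genes above the dashed line and minus-strand genes below. Filled red points have an adjusted p under 0.05. Between the controls the 5 minus-strand genes shown are red, mt-Nd6 at 2.41 among them, while mt-Te and mt-Ty, not shown, were not called.

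**Figure D5:**
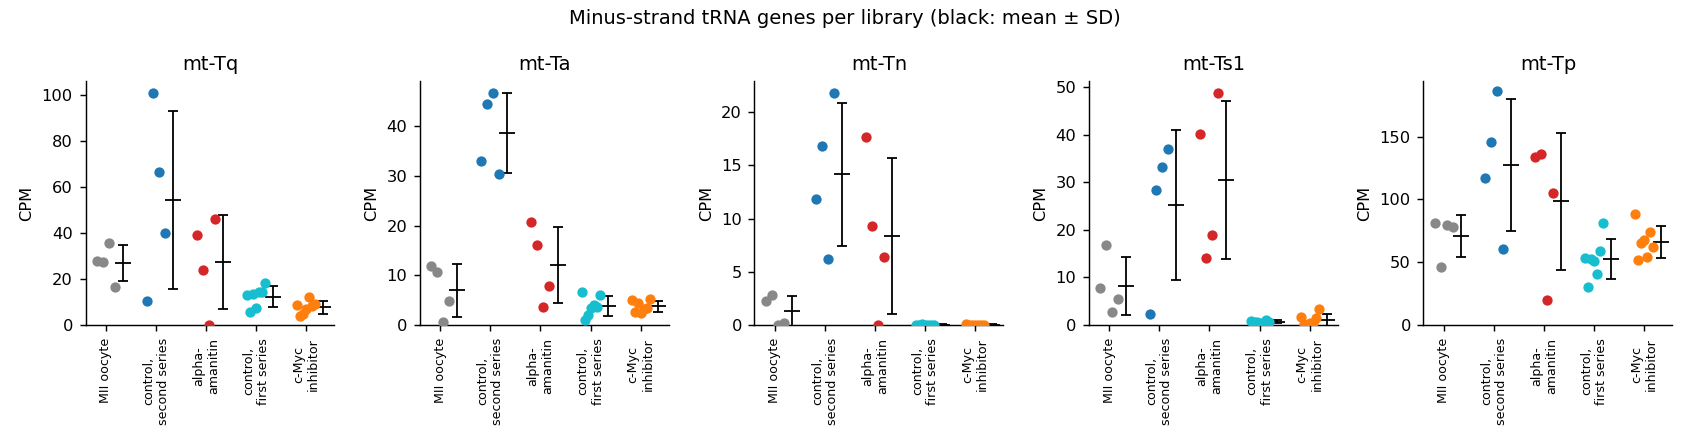
Level of 5 minus-strand tRNA genes in CPM, with libraries as points and the group mean ± SD in black. First-series libraries reach at most 0.143 CPM for mt-Tn and 3.465 CPM for mt-Ts1, while second-series embryos reach 21.8 and 48.8 CPM.

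Nuclear genes that serve the mitochondrial genome were counted in lists by role. Of 16 tested genes for replication and transcription of mitochondrial DNA, 0 were called under the c-Myc inhibitor by edgeR, DESeq2 or limma voom, where edgeR called 11.6% of all genes, and 2 had an unadjusted edgeR p under 0.05. Under alpha-amanitin 0 of 17 were called by any of these tools, where edgeR called 0.0381% of all genes, and 1 had an unadjusted p below 0.05. Polrmt was at 14.8 ± 4.83 CPM in first-series controls and 17.1 ± 4.61 CPM under the c-Myc inhibitor (log2 fold change 0.23, SE 0.25, edgeR adjusted p = 0.694). Tfam, which packs mitochondrial DNA and helps to transcribe it, was at 38.6 ± 6.57 and 37.0 ± 9.15 CPM (-0.04, SE 0.16, edgeR adjusted p = 0.935). Tfb2m was at 27.5 ± 3.56 and 20.7 ± 4.75 CPM, with overlapping ranges (-0.40, SE 0.18, edgeR adjusted p = 0.171). In second-series controls Tfb2m was at 5.41 to 20.4 CPM, below the 22.9 to 30.7 CPM of first-series controls, without a call (-1.17, SE 0.37, edgeR adjusted p = 0.0732). Between the controls 1 of 17 was lower, Mterf1a, of the family of mitochondrial termination factors (edgeR adjusted p = 0.0322), where 2.60% of all genes were lower.

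Of 23 genes for processing and decay of mitochondrial RNA 2 fell with the c-Myc inhibitor and 0 rose, where 4.45% of all genes were lower and 7.15% higher. They were Pde12 (-0.65, SE 0.20, edgeR adjusted p = 0.0284), which removes poly(A) tails in mitochondria, and Mtpap (-0.44, SE 0.14, edgeR adjusted p = 0.0345), which adds them. Lrpprc, which stabilises mitochondrial mRNAs, was at 98.0 ± 17.6 and 87.2 ± 14.2 CPM (-0.15, edgeR adjusted p = 0.531). Of 15 translation factors 0 were called by edgeR and 1 by DESeq2, with 1 at an unadjusted p under 0.05.

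Among mitochondrial ribosomal proteins 4 of 76 rose and 1 fell under the c-Myc inhibitor, with log2 fold changes of 0.92 for Mrpl12, 0.51 for Mrps25, 1.76 for Mrpl54 and -0.70 for Mrps14. Of nuclear-encoded subunits of oxidative phosphorylation 6 of 73 were higher and 1 lower, among them Uqcrq of complex III at 1.49, Atp5h of the ATP synthase at 0.63 and Sdha of complex II at -0.40. Of all genes 7.15% were higher and 4.45% lower in that comparison. Under alpha-amanitin 0 of 74 and 0 of 77 were called by edgeR, with 3 and 7 at an unadjusted p under 0.05 and 0 and 1 called by DESeq2.

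From oocyte to control embryo 1 of 74 ribosomal proteins (Mrpl35, -2.31, edgeR adjusted p = 0.00702) and 1 of 77 subunits (Sdhd of complex II, -2.22, edgeR adjusted p = 0.0212) were lower and 0 higher by edgeR, where 1.90% of all genes were lower and 1.20% higher. In either direction DESeq2 called 3 and 9 of them and limma voom 5 and 16. At an unadjusted edgeR p under 0.05 there were 7 and 17. The list medians were -0.41 and -1.14, against -0.03 over all genes and 1.45 over the mitochondrially encoded genes tested. In second-series against first-series controls 2 of 74 ribosomal proteins were higher, Mrpl3 (0.97) and Mrps25 (0.56), where 1.57% of all genes were higher. Of 72 subunits 1 was lower, Ndufs6 of complex I, with no count in the second-series controls (edgeR adjusted p = 0.0344), where 2.60% of all genes were lower. Between the inhibitors' effects 1 of 76 ribosomal proteins differed, Mrps33 (-1.21, edgeR adjusted p = 0.0483), where 1.20% of all genes did.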

How the data were processed

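The deposited table holds raw counts per Ensembl gene for 26 libraries, and the submitters' processing notes name cutadapt 1.7.1, STAR 2.5.0a and GRCm38. The counting program, strand setting and treatment of reads with several matches are named neither there nor in the labels. Symbols came from GENCODE vM21 for 55141 of 55401 IDs. Levels are counts per 1000000 counts of the library, computed here. Fold changes came from edgeR 4.0.16 (R 4.3.3) with TMM scaling, filterByExpr (minimum count 10, minimum total 15), robust quasi-likelihood F tests and Benjamini-Hochberg adjustment over all genes tested (threshold 0.05). The c-Myc comparison used 14 libraries, the second-series comparisons 1 fit of 12, the controls 11 and the difference of effects 22. Nuclear copies were sought among annotated transcripts with BLAST+ 2.17.0 (identity of at least 90%) and as identical windows of 50 bases. Alternatives were other scaling, no filter, DESeq2 1.42.0, limma 3.58.1 voom, 1 fit of all 5 groups, a replicate block, each library left out and, added after the data were seen, no robust estimation. Library totals were 5371602 to 31540627. Floors of 3 counts cover counting error only. On simulated counts, 2-fold changes were recovered for 47.4% of changed genes in the c-Myc comparison, 9.9% with alpha-amanitin and 21.5% between controls. All 13 mRNAs and 2 rRNAs were to be named, tRNAs with a mean of at least 1 CPM in a group, and up to 3 called genes per list and direction. The members, lists and rules were chosen with earlier results of these data known. Same-numbered libraries correlated at -0.045 to 0.059 in their deviations, so the numbers were not taken as pairs.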

Additional observations from a re-analysis of the deposited data

Results flagged for a closer look

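In 143 sets of 4 or 7 libraries, 19 held a library whose gap to the nearest of the others was large for the set's range. Chance gives about 1 in 20 for values that vary evenly, a rate that cannot be applied where nearly all libraries have no count, as for mt-Co2, mt-Atp6, mt-Nd4l and mt-Tw, the last with 2 counts in its highest library. In first-series controls, replicate 2 was lowest in mt-Rnr2 (2505 CPM, others 8626 to 12910) and mt-Cytb (204 CPM, others 1174 to 1778). Replicate 8 was highest in mt-Nd6 (198.5 CPM, others 120 to 152.5) and replicate 7 in mt-Co3 (0.840 CPM, others 0.238 to 0.431). Replicate 4 was highest in mt-Tn (0.143 CPM) and mt-Tc (0.285 CPM), and c-Myc inhibitor replicate 5 in mt-Tc (0.110 CPM).

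Among oocytes, replicate 3 was lowest in mt-Nd4 (203 CPM, others 295 to 307) and in the mRNA share (0.290%, others 0.486 to 0.505%). Replicate 2 was lowest in mt-Tp (46.3 CPM, others 77.7 to 81.1) and replicate 1 highest in mt-Tc (3.63 CPM, others 0 to 0.347).

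In second-series controls, replicate 3 was highest in mt-Rnr1 (7588 CPM, others 5819 to 6003), replicate 1 in mt-Tl1 (2.11 CPM, others 1.23 to 1.30) and replicate 2 in mt-Co2 (2.70 CPM, others 0). Under alpha-amanitin, replicate 3, the shallowest library, was highest in mt-Te (63.7 CPM, others 0.245 to 2.51) and mt-Tw (0.372 CPM, others at most 0.0317). Replicate 1 was highest in mt-Ty (10.65 CPM, others at most 0.921), replicate 2 in mt-Atp6 (2.51 CPM, others 0) and replicate 4 in mt-Nd4l (0.0490 CPM, others 0).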

How the results depend on the processing

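Of the class shares and call counts, 342 alternative values stayed close to the main ones and 38 moved. For single genes 1272 alternative values kept direction and side of the threshold, 63 gained it, 39 lost it and 38 changed sign. The cause was not tested.

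Mitochondrial genes called higher under the c-Myc inhibitor numbered 1, but 0 in 1 fit of all 5 groups and 1 to 2 with a library left out. The lower call numbered 2 with DESeq2, 0 with limma voom, 3 with no robust estimation, 0 in 1 fit of all 5 groups, 0 with the replicate block, and 0 to 5 with a library left out. Lower under alpha-amanitin were 3 with no filter, 2 with DESeq2, 2 with limma voom, 0 in 1 fit of all 5 groups and 0 to 1 with a library left out. Higher in control embryos than oocytes were 8 with DESeq2, 8 when all 5 groups were fitted at once and 10 with limma voom. Higher in alpha-amanitin embryos than oocytes were 6 with no filter, 6 with DESeq2, 7 with limma voom, 1 in 1 fit of all 5 groups and 2 to 4 with a library left out. The call in the fit of all 5 groups was mt-Atp6 (6.75, edgeR adjusted p = 0.0461), and not mt-Nd4 or mt-Cytb. It rests on 49 counts in alpha-amanitin replicate 2, with 0 in the other alpha-amanitin libraries and in the oocytes. Between the controls the replicate block gave 4 higher and 0 lower. Between the effects there were 4 higher and 1 lower with no filter, and 2 and 1 with DESeq2.

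Some signs changed, of genes not called. Under the c-Myc inhibitor mt-Nd1, mt-Co1 and mt-Atp6 were at 0.07, 0.07 and 0.07 with limma voom, at 0.15, 0.14 and 0.16 with the replicate block, and at -0.20 to 0.11, -0.29 to 0.04 and -0.27 to 0.07 with a library left out. Under alpha-amanitin limma voom gave 0.02 for mt-Rnr2 and 1.06 for mt-Nd3, and leaving out a library -0.13 to 0.10 for mt-Rnr2, -1.34 to 0.73 for mt-Nd3 and -0.45 to 0.00 for mt-Nd6. mt-Nd3 with a library left out was at -1.17 to 0.38 in control embryos and -1.77 to 0.35 in alpha-amanitin embryos against oocytes, and at -0.82 to 0.33 between the controls. The difference of effects with limma voom was 0.12 for mt-Nd2 and 0.11 for mt-Nd4, and with a library left out -0.12 to 0.14 for mt-Rnr1, -0.33 to 0.07 for mt-Nd2, -0.50 to 6.85 for mt-Co2 (6.42 with all libraries, and -0.50 without second-series control replicate 2, the only second-series library with a count) and -0.44 to 0.02 for mt-Nd5.

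Over all genes, higher and lower calls went from 930 and 579 to 267 and 116 in 1 fit of all 5 groups and to 757 and 346 with the replicate block for the c-Myc inhibitor. For alpha-amanitin they went from 4 and 1 to 91 and 32 with DESeq2, 64 and 11 with no filter, 70 and 45 in 1 fit of all 5 groups, 3 and 7 with limma voom and 1 and 1 with the replicate block. Between the controls they went from 213 and 353 to 539 and 833 with DESeq2, to 626 and 334 with no filter, to 256 and 571 with limma voom and to 32 and 72 with the replicate block. From oocyte to control embryo 157 and 249 became 285 and 484 with DESeq2, 280 and 660 with limma voom and 589 and 837 when all 5 groups were fitted at once. From oocyte to alpha-amanitin embryo 67 and 176 became 219 and 311, 141 and 401, and 351 and 553 in the same order, and 174 and 290 with no filter. Between the effects 119 and 71 became 413 and 629 with DESeq2 and 234 and 209 with no filter. Replicate numbers did not pair the libraries, and most libraries did not correlate best with their own number. No replicate block was fitted for the difference of effects.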
